A study of Saccharomyces cerevisiae with 20 samples.

Results

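The RNA response of cdc33-ts4-2 cells to a heat shift was examined in 6 RNA-seq libraries, 3 from cultures kept at 25°C and 3 from cultures held at 37°C for 1 h. The members were all genes in the authors' comparison of these libraries whose mean normalised count was at least 20, which gave 5346 of the 5778 genes listed. The member just inside this limit was YKR041W at 20.04, and the gene just outside it was THI12 at 19.998. The mean over members had a median of 262. The strain was haploid BY4741 (MATa his3Δ1 leu2Δ0 met15Δ0 ura3Δ0) whose CDC33 locus carried the temperature-sensitive allele together with a HIS3 marker, and the control strain carried wild-type CDC33 with the same marker. Cells grew in YPD at 25°C to mid-log phase, cultures were divided between the temperatures, and cycloheximide was added before harvest in every group. The 6 CDC33 RNA-seq libraries, 3 per temperature, are given beside the mutant. The 8 ribosome profiling libraries of the 20 samples were not compared, and entered only in the choice of regions described below.

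CDC33 encodes eIF4E, the protein that binds the mRNA cap and recruits the other initiation factors. The paper reports that the mutant already held less eIF4E than CDC33 cells before the shift. In the mutant the protein is unstable at 37°C, so a mutant culture at 37°C meets both a heat shift and further loss of eIF4E. The CDC33 cultures meet the heat shift alone. The change in the mutant therefore does not start from a full level of eIF4E. Heat is known to induce chaperone genes in yeast, to lower transcription of ribosomal protein genes, and to slow splicing. Yeast introns are few and most lie in highly expressed genes, many of them genes for ribosomal proteins.

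Levels of each gene per sample were not among the values analysed here. What could be compared library by library was how reads fell within each transcript. For the 5′ UTR, the intron and the 3′ UTR of a gene, the density is the number of reads per nt of that region divided by the mean coverage of the coding sequence (CDS) of the same gene in the same library. A density of 1 means as many reads per nt as in the CDS, and a lower CDS coverage raises all densities of a gene just as more reads in the region would. A density in each of the 20 libraries, ribosome profiling included, was required. It was at hand for the 5′ UTR of 1214 members, the intron of 90 and the 3′ UTR of 1204, in all 1255 members. The number of reads behind a density was not given, so its counting error is unknown.

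The pooled mean over the libraries of both strains had the marks of a MATa strain with the BY4741 deletions. It does not separate one library or strain from another. The authors' mean was 6117 for MFA2 and 7257 for STE2, both expressed in MATa cells, against 2.00 for MF(ALPHA)2, the alpha-factor gene. SAG1, another gene of the alpha mating type, stood at 425. The deleted genes LEU2 and URA3 were listed at 0. Replicates of 1 group were labelled as separate samples, and the p-values measure the spread between them.

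The intron boundaries are shown first, because intron density gave the largest share of members that changed. For the 5 introns with the largest rise among those that passed the test and 3 of those that fell, the first 20 bases of the intron are given, with the 5′ splice site in capitals. They were read from the R64 reference, the release to which the reads had been aligned.
RPL19B 5′ end: GTATGTttaacagtgatact
TEF4 5′ end: GTATGTtccatattttattt
PSP2 5′ end: GTATGTgcctcggtttttct
GLC7 5′ end: GTATGTtaatgttgaacttc
EFB1 5′ end: GTATGTtccgatttagttta
RPP1B 5′ end: GTATGTacaaaaatgcaacc
ACT1 5′ end: GTATGTtctagcgcttgcac
RPS14B 5′ end: GTACGTgaaaggggtgatat
The common splice site GTATGT opened 7 of these 8 introns and 86% of the 93 introns annotated in the 90 genes, and RPS14B had GTACGT in its place. The branch site, where the lariat forms, is shown with TACTAAC in capitals.
RPL19B branch site: gcaacttTACTAACatcaat
TEF4 branch site: attgtttTACTAACatttct
GLC7 branch site: attcattTACTAACttattt
EFB1 branch site: ttctcatTACTAACaagcaa
RPP1B branch site: ctcatttTACTAACaaactc
ACT1 branch site: tctcatgTACTAACatcgat
RPS14B branch site: ttctgttTACTAACaactat
The letters TACTAAC on the transcribed strand were found in 91.4% of the 93 introns, and not in that of PSP2. On R64 these introns lie at chrII:168425-168808 (RPL19B), chrXI:283096-283421 (TEF4), chrXIII:236592-236953 (PSP2), chrV:432672-433196 (GLC7), chrI:142254-142619 (EFB1), chrIV:230020-230320 (RPP1B), chrVI:54378-54686 (ACT1) and chrX:73797-74204 (RPS14B). Those of TEF4 and EFB1 hold the small nucleolar RNAs SNR38 and SNR18, and reads from such RNAs had been filtered out before alignment.

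Intron density rose at 37°C in 18 of the 90 genes and fell in 5 (limma on log2(density + 0.001), Benjamini-Hochberg adjusted p of 0.05 or less). These are 20% and 5.56% of the introns tested. The 18 risers held 14 genes for cytosolic ribosomal proteins, TEF4 and EFB1 of the elongation factor eEF1B, PSP2 and GLC7. The sample median over the 90 genes was 0.0223, 0.0217 and 0.0212 at 25°C and 0.0233, 0.0251 and 0.0251 at 37°C. Every library at 37°C was above every library at 25°C, and the exact permutation test gave p = 0.1, the smallest that 3 against 3 allows. Median change over genes was 0.29 on the log2 scale, and relative to each library's own median 8 introns rose and 6 fell. Without the third 25°C library 9 introns rose and 2 fell, and without the first 25°C or the second 37°C library 3 fell.

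RPL19B, a protein of the large ribosomal subunit, had the largest rise that passed the test. Its intron density was 0.00894, 0.0124 and 0.0128 at 25°C and 0.0398, 0.0412 and 0.0391 at 37°C. The rise was 1.75 ± 0.20 (log2, SE) with an adjusted p of 0.000609 in limma, and the groups lay far apart. The same intron rose by 1.27 in CDC33 cells. Reads that also matched the copy RPL19A had been discarded, so the CDS coverage under the ratio comes from the parts where the copies differ, and the same holds for the other paired ribosomal protein genes.

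TEF4 and EFB1 encode the gamma and alpha subunits of eEF1B, which recharges the elongation factor eEF1A with GTP. The TEF4 intron went from 0.106, 0.112 and 0.121 at 25°C to 0.243, 0.382 and 0.526 at 37°C, a rise of 1.69 ± 0.34 (adjusted p = 0.00547, limma). The EFB1 intron went from 0.251, 0.410 and 0.259 to 0.421, 0.867 and 0.946, a rise of 1.23 ± 0.36 (adjusted p = 0.0323, limma). The EFB1 call was lost relative to the library median (adjusted p = 0.0781, limma) and without any single mutant library other than the second at 25°C and the first at 37°C. The groups did not overlap for either gene, though for EFB1 the highest 25°C and the lowest 37°C library were close. In CDC33 cells the log2 changes were 0.09 and -0.20, neither past the threshold. At 25°C, too, the EFB1 intron was denser in the mutant than in CDC33 cells, by 1.92.

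PSP2, an RNA-binding protein with RGG repeats, was the single gene called in all 3 regions. Its intron density was 0.280, 0.239 and 0.256 at 25°C and 0.652, 0.968 and 0.808 at 37°C, a rise of 1.63 ± 0.28 (adjusted p = 0.00355, limma). Its 5′ UTR rose by 1.32 and its 3′ UTR by 1.68, so the CDS of PSP2 took a smaller share of the reads of its transcript at 37°C. GLC7, the catalytic subunit of protein phosphatase 1, had an intron density of 0.0290, 0.0381 and 0.0294 at 25°C and 0.107, 0.105 and 0.0725 at 37°C. The GLC7 rise was 1.52 ± 0.42 (adjusted p = 0.0264, limma). Its call was lost relative to the library median (adjusted p = 0.0669, limma) and without the first or the third 25°C or the first or second 37°C library (0.0695 to 0.078).

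ACT1, the actin gene, and RPS14B, a small subunit protein that represses the splicing of its own pre-mRNA, went the other way. The ACT1 intron was at 0.00923, 0.0110 and 0.00970 at 25°C and at 0.00388, 0.00493 and 0.00422 at 37°C, which was a fall of 1.04 ± 0.18 on the log2 scale (adjusted p = 0.00355, limma). The RPS14B intron was at 0.348, 0.406 and 0.421 at 25°C and at 0.223, 0.237 and 0.196 at 37°C, and dropped by 0.84 ± 0.15 on the log2 scale (adjusted p = 0.00355, limma). In both genes the 2 temperatures were well apart, and both introns also fell in CDC33 cells. RPP1B, a protein of the ribosomal stalk, fell by 1.09, RPS27B by 0.93 and SAR1, the GTPase of COPII vesicles, by 0.60. The call of RPP1B was lost without the third 25°C library (adjusted p = 0.0513, limma), and those of RPS27B and SAR1 without any of several mutant libraries. YRA1, an mRNA export factor that also limits its own splicing, had one of the densest introns at 0.609, 0.662 and 0.474 at 25°C and 1.07, 0.864 and 0.817 at 37°C. All 3 YRA1 values at 37°C were above those at 25°C, and the difference of 0.66 missed the threshold (adjusted p = 0.058, limma).

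**Figure D1:**
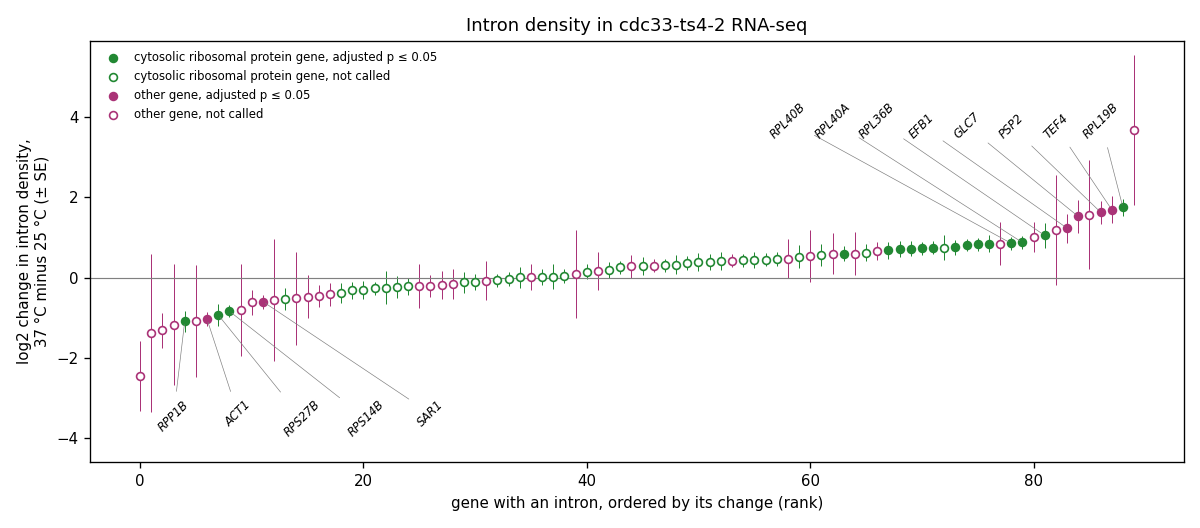
Change in intron density at 37°C in cdc33-ts4-2 RNA-seq (y axis, log2 of 37°C minus 25°C, bars are standard errors from limma, n = 3 per temperature) for the 90 genes with an intron, ordered by that change (x axis, rank). Filled points passed an adjusted p of 0.05, with 18 above the zero line and 5 below it, and 14 of the filled points above the line are ribosomal protein genes.

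Of the 51 cytosolic ribosomal protein genes with an intron value, 14 rose and 3 fell, and their median change of 0.36 compares with 0.29 over all 90 genes. Relative to the library median 6 of the 51 rose and 3 fell. Among the 87 genes with a single intron, the 50 ribosomal protein genes had longer introns, with a median of 401 nt against 139 nt in the 37 others. The 37 others had 4 risers, 2 fallers and a median change of 0.02. Their changes ranged from -2.45 to 3.67, and 11 of the 90 genes had a density of 0 in at least 1 RNA-seq library. The introns were also grouped by their splicing sequences. The 74 with GTATGT had a median change of 0.22 and the 13 with another 5′ splice site 0.39, and the 80 with TACTAAC had a median change of 0.22 against 0.61 in the 7 without it.

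Introns also responded to the shift in CDC33 cells, where 19 rose and 11 fell (21.1% and 12.2% of those tested). Of the 18 risers of the mutant, 11 also rose in CDC33 cells, and of its 5 fallers 3 also fell there. No intron passed the test of the difference between the strains' changes (limma interaction, adjusted p of 0.0941 at the lowest), and 16 had an unadjusted p under 0.05. The strains differed in intron density before the shift. The mutant also held less eIF4E then, and a link between these differences was not tested. At 25°C 50 introns were denser in cdc33-ts4-2 than in CDC33 cells and 1 was less dense (55.6% and 1.11% of those tested), a comparison added after the values were seen. The median difference at 25°C was 0.74, and 16 of the 18 introns that rose at 37°C were among the 50. Among single-intron genes, 44 of the 50 for ribosomal proteins were denser in the mutant at 25°C (median difference 0.88). Of the 37 others 5 were denser (median difference 0.14). Of the 18 risers 14 were ribosomal protein genes, so their overlap with the denser introns was not separated from this gene class. The CDC33 sample medians were 0.0116, 0.0153 and 0.0153 at 25°C and 0.0140, 0.0151 and 0.0128 at 37°C, all below every mutant library.

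The 5′ UTR density rose in 44 members and fell in 2 (limma on log2(density + 0.01), adjusted p of 0.05 or less), which is 3.61% and 0.164% of the 1218 features tested. The rises ran from 0.31 to 5.70 on the log2 scale with a median of 1.35. The upper end of that range is ARG56, whose 5′ UTR was listed at 0 in every 25°C library of the mutant, so that its fold has no meaning. The sample median over the measured members was 0.460, 0.536 and 0.526 at 25°C and 0.493, 0.523 and 0.679 at 37°C, and these overlapped (exact permutation p = 0.6). The third 37°C library had the highest median. Relative to each library's own median 26 members rose and 4 fell. Without the first 25°C library or without the third 37°C library 29 rose, without the second or the third 25°C library none fell, without the first 25°C or the second 37°C library 1 fell, and 3 fell without the first 37°C library.

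HRP1, an RNA-binding subunit of the factor that cleaves and polyadenylates pre-mRNA, and ODC2, a carrier of the inner mitochondrial membrane, had the largest rises with a fold among the members that passed the test. APM1, a subunit of a clathrin adaptor, had a larger log2 change of 4.62 but was listed at 0 in 2 libraries at 25°C and missed the threshold (adjusted p = 0.0504, limma). HRP1 was at 1.91, 1.92 and 1.67 at 25°C and at 35.3, 30.8 and 35.2 at 37°C, a rise of 4.20 ± 0.26 (adjusted p = 2.39e-05, limma). ODC2 was at 0.852, 1.07 and 0.745 at 25°C and at 16.0, 19.4 and 16.6 at 37°C, a rise of 4.28 ± 0.28 (adjusted p = 2.39e-05, limma). In both genes the annotated 5′ UTR thus carried many times more reads per nt than the CDS at 37°C, in every replicate. ODC2 also rose in CDC33 cells, by 2.62.

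PHB1, a prohibitin of the inner mitochondrial membrane, went from 0.178, 0.177 and 0.161 to 2.08, 2.07 and 1.41, a rise of 3.34 ± 0.23 (adjusted p = 2.68e-05, limma). SEN1, a helicase that ends transcription of short noncoding RNAs, went from 1.11, 0.678 and 0.620 to 6.53, 5.54 and 4.76, a rise of 2.82 ± 0.39 (adjusted p = 0.00259, limma). YHB1, the flavohemoglobin that removes nitric oxide, went from 0.0664, 0.0832 and 0.0810 to 0.465, 0.540 and 0.552, a rise of 2.61 ± 0.24 (adjusted p = 0.000217, limma). No 37°C library of these genes came near a 25°C library. CAR1, the arginase, rose by 2.34 ± 0.34 (adjusted p = 0.00341, limma) from a mean of 0.0991 ± 0.0418 to 0.517 ± 0.0872 (SD, n = 3). RIM15, a protein kinase of the entry into stationary phase, rose by 2.23 ± 0.25 (adjusted p = 0.000716, limma) from 0.881 ± 0.0530 to 4.23 ± 0.962 (SD, n = 3).

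ARG56 (ARG5,6), which encodes a pair of enzymes of arginine synthesis, was listed at 0 in all 3 libraries at 25°C and at 0.412, 0.542 and 0.593 at 37°C (adjusted p = 0.0104, limma). In CDC33 cells its values were 0.252, 0 and 0.128 at 25°C and 0.142, 0.274 and 0.0847 at 37°C, so those groups overlapped. The 2 falls that passed the test were NAB3 and SFK1. NAB3, an RNA-binding partner of Sen1 in termination, went from 1.02, 0.904 and 0.990 to 0.306, 0.375 and 0.352, a fall of 1.47 ± 0.30 on the log2 scale (adjusted p = 0.0203, limma). SFK1, a plasma membrane protein, dropped by 1.11 ± 0.22 on the log2 scale (adjusted p = 0.0183, limma). The NAB3 call was lost when any 1 of the 6 mutant libraries was left out (adjusted p = 0.0508 to 0.0841, limma), and the SFK1 call without the second or the third 25°C or the second 37°C library (0.0626 to 0.0818) and in the mutant libraries alone (0.0612). The 3′ UTR of NAB3 rose by 1.37.

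**Figure D2:**
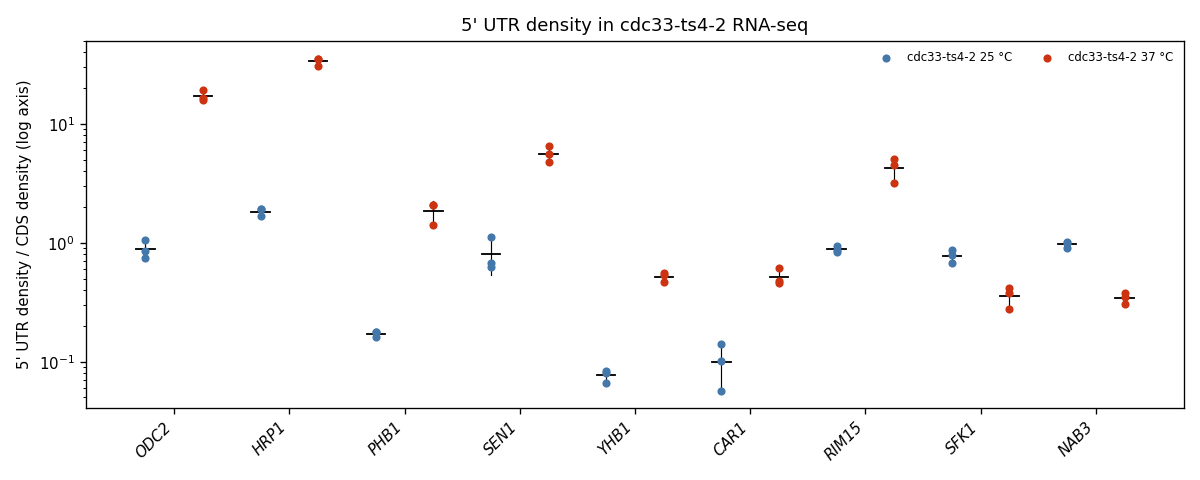
5′ UTR density divided by CDS density (y axis, log axis, no unit) in the 3 cdc33-ts4-2 libraries at 25°C and the 3 at 37°C for the named genes with the largest rises and falls. Points are libraries, horizontal lines means and vertical lines SDs; ARG56 is left out because it was at 0 at 25°C, HRP1 reached 30.8 to 35.3 at 37°C, and NAB3 and SFK1 are lower at 37°C.

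Of the 44 risers, which were 3.61% of all features tested, 18 were in one of the 19 gene lists and 26 in none. Of the 21 measured genes of the proteasome 3 rose, which were PRE7, a subunit of the core particle, by 1.98, RPN4, the transcription factor of proteasome genes, by 1.50, and RPN8, a subunit of the lid, by 1.30. Median change in this group was 0.07 against 0.13 over all members. Of the 77 cytosolic ribosomal protein genes 6 rose, by 0.31 in RPL42B to 1.51 in RPS4A, with a median of 0.08, and relative to the library median 1 of them rose. Of the 43 genes of amino acid synthesis 2 rose, ARG56 and BAT1, the mitochondrial branched-chain aminotransferase (1.36). ERG12, the mevalonate kinase, and ELO1, a fatty acid elongase, rose by 2.13 and 1.01, the only 2 calls among 17 genes of sterol and fatty acid synthesis. The mRNA decay list had 2 risers of 18, PAN3 of the PAN deadenylase (1.38) and LSM6 of the Lsm ring (0.66). LSM6 had low densities, with means of 0.00704 at 25°C and 0.0171 at 37°C. So had RPS30B among the ribosomal protein risers, at 0.00988 and 0.0204. These lie close to the 0.01 added before the log, so the sizes of their log2 changes depend on that setting. Single risers were RIM15 among 21 general stress genes, TEF2, one of the genes of eEF1A (1.34), among 11 elongation and termination factors, and FUM1, the fumarase (1.72), among 27 genes of respiration and the citric acid cycle.

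No 5′ UTR was called among 29 chaperones and heat shock proteins (median change 0.07), 19 initiation factors (0.13), 17 aminoacyl-tRNA synthetases (0.20), 31 ribosome biogenesis genes (0.16), 14 glycolytic genes (-0.11) or 9 mRNAs with regulatory leaders (0.20). GCN4, the activator of amino acid synthesis genes with its upstream open reading frames, had 0.533, 0.644 and 0.626 at 25°C and 0.556, 0.554 and 0.630 at 37°C, so the groups overlapped (log2 change -0.05 ± 0.18, adjusted p = 0.984, limma). CDC33 itself had 0.606, 0.796 and 0.620 at 25°C and 0.777, 0.681 and 1.12 at 37°C (log2 change 0.32 ± 0.21, adjusted p = 0.586, limma). The values of the CDC33 gene overlapped between temperatures too, and neither change passed the threshold. None of the 12 genes followed whatever their values was called in this region. Over all 1218 features tested 3.61% rose and 0.164% fell. Sets this small may therefore hold no call without standing apart from the rest.

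In CDC33 cells 4 5′ UTRs rose and 3 fell (0.328% and 0.246% of those tested), and the median change was -0.10 against 0.13 in the mutant. The change itself differed between the strains in 12 genes, always toward a higher value in the mutant (limma interaction, adjusted p of 0.05 or less, 0.985% of those tested). The 12 were HRP1, RIM15, STO1, PHB1, PAN3, CAR1, VSB1, YHB1, BRE5, RAP1, YGL140C and HTB2. In HRP1 the CDC33 cells went from 1.54, 2.31 and 2.57 to 2.78, 3.61 and 3.43, a small move beside that of the mutant. RIM15 rose in the mutant and went from 1.72, 1.85 and 1.49 to 1.09, 0.915 and 0.546 in CDC33 cells. STO1, the large subunit of the nuclear cap-binding complex, had 0.449, 0.408 and 0.640 at 25°C and 1.55, 1.00 and 1.71 at 37°C in the mutant, where its own change missed the threshold (adjusted p = 0.0883, limma). In CDC33 cells STO1 went down, from 0.983, 0.770 and 0.687 to 0.401, 0.307 and 0.117. RAP1, an activator of ribosomal protein genes, had a change of -0.05 in the mutant and of -1.58 in CDC33 cells. Relative to the library median 3 genes were called. Leaving out the second or the third 25°C library of the mutant gave 3 and its first 37°C library 4, and leaving out a 25°C library or the second 37°C library of CDC33 cells gave 5 to 7.

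**Figure D3:**
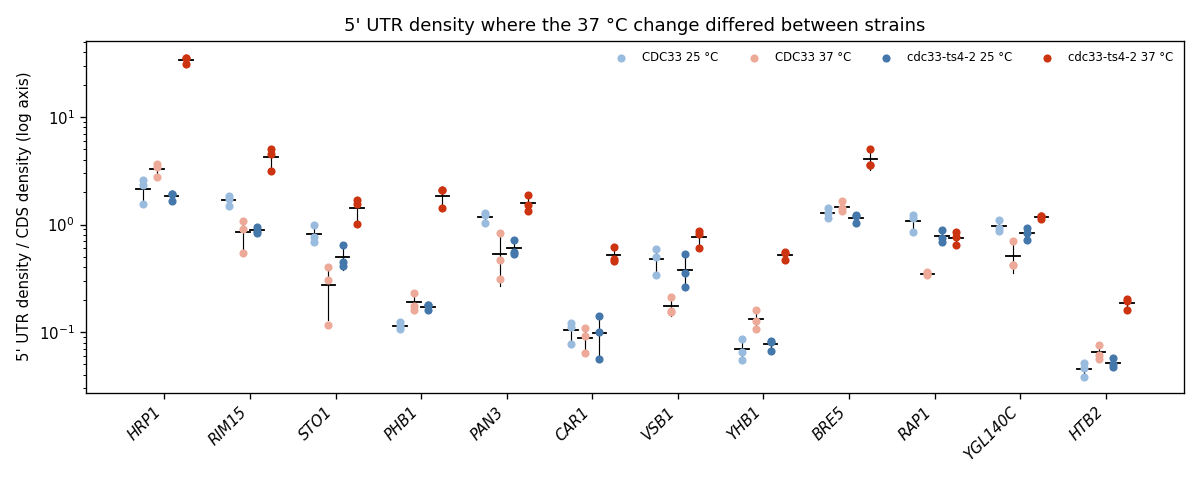
5′ UTR density divided by CDS density (y axis, log axis, no unit) for the 12 genes whose change at 37°C differed between the strains, in the 3 libraries of each strain and temperature. Points are libraries, horizontal lines means and vertical lines SDs; HRP1 reaches 30.8 to 35.3 in the mutant at 37°C against 2.78 to 3.61 in CDC33 cells, and RAP1 is lower at 37°C in the CDC33 libraries, with overlapping values in the mutant.

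The 3′ UTR density rose in 25 members and fell in 5 (limma on log2(density + 0.01), adjusted p of 0.05 or less), which is 2.07% and 0.414% of the 1208 features tested. These calls rested on the full set of libraries. Leaving out the first 37°C library left no call, leaving out the second 25°C library 1 rise, and leaving out any other mutant library between 3 and 10 rises and between 0 and 3 falls. The first 25°C library of CDC33 cells had a median density of 0.611 against 1.01 and 0.965 in its replicates, and without it 68 rose and 13 fell, while without the second 37°C CDC33 library 15 rose and 3 fell. Relative to the library median 76 rose and 27 fell. The mutant medians were 0.760, 0.831 and 0.899 at 25°C and 0.867, 0.810 and 0.855 at 37°C, which overlapped (exact permutation p = 0.8).

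VMA7, a subunit of the vacuolar proton pump, had the largest rise that passed the test. Its 3′ UTR density was 0.376, 0.419 and 0.359 at 25°C and 1.95, 1.30 and 1.80 at 37°C, a rise of 2.08 ± 0.29 (adjusted p = 0.00804, limma). HSP104, the disaggregase that recovers heat-damaged proteins, went from 1.64, 1.30 and 1.35 to 5.09, 4.54 and 4.01, a rise of 1.67 ± 0.38 (adjusted p = 0.0345, limma). All 37°C libraries lay well above the 25°C ones in both genes. The HSP104 call was lost without any 1 of the 6 mutant libraries and without the second 37°C library of CDC33 cells (adjusted p = 0.0538 to 0.165, limma). HSP104 was the 1 gene called among 30 chaperones and heat shock proteins, whose median change was 0.03, as over all members. HSC82, an Hsp90 gene, was at 0.978, 0.986 and 0.808 at 25°C and at 1.87, 1.49 and 1.99 at 37°C, groups that did not overlap, with an adjusted p of 0.18 in limma.

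RIE1, an RNA-binding protein, rose by 1.63, ABF1, a general regulatory factor of transcription, by 1.58, and SER2, the last enzyme of serine synthesis, by 1.56. RIM20 of the alkaline pH pathway rose by 1.41. Of the 22 general stress genes 2 rose, TPS2 of trehalose synthesis by 1.06 and GRE3, an aldose reductase, by 0.87, with a list median of 0.15 against 0.03. The 77 ribosomal protein genes (median -0.11), 20 initiation factors (0.10), 22 proteasome genes (-0.06) and 17 aminoacyl-tRNA synthetases (0.03) held no call. The share over all 1208 features tested was 2.07% for rises and 0.414% for falls.

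OSH2, an oxysterol-binding protein, and RPN4 are neighbours on the same strand of chromosome IV, with OSH2 first and 954 nt between its stop codon and the start codon of RPN4. The 3′ UTR of OSH2 went from 3.08, 4.30 and 3.35 to 11.5, 9.01 and 8.51, a rise of 1.43 ± 0.28 (adjusted p = 0.0214, limma). The 5′ UTR of RPN4 went from 1.04, 1.22 and 0.860 to 3.60, 2.46 and 2.86, a rise of 1.50 ± 0.18 (adjusted p = 0.00111, limma). The 3′ UTR of OSH2 was denser than its CDS at both temperatures. The 5′ UTR of RPN4 was near its CDS at 25°C (mean 1.04) and denser at 37°C. The pair was picked out after the values were seen. The neighbours YPP1 and PMT6 on chromosome VII both fell. PMT6, which adds mannose to proteins in the ER, went from 0.710, 0.630 and 0.667 to 0.245, 0.307 and 0.352, a fall of 1.14 ± 0.18 on the log2 scale (adjusted p = 0.00927, limma), and YPP1, a protein of endocytic transport, fell by 1.04. The other falls were MON2 by 1.30, MCH4 by 1.01 and RPB2, the second-largest subunit of RNA polymerase II, by 0.98. No 3′ UTR passed the test in CDC33 cells (limma, 51 at an unadjusted p under 0.05) or in the difference between strains (limma, 69 at an unadjusted p under 0.05).

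**Figure D4:**
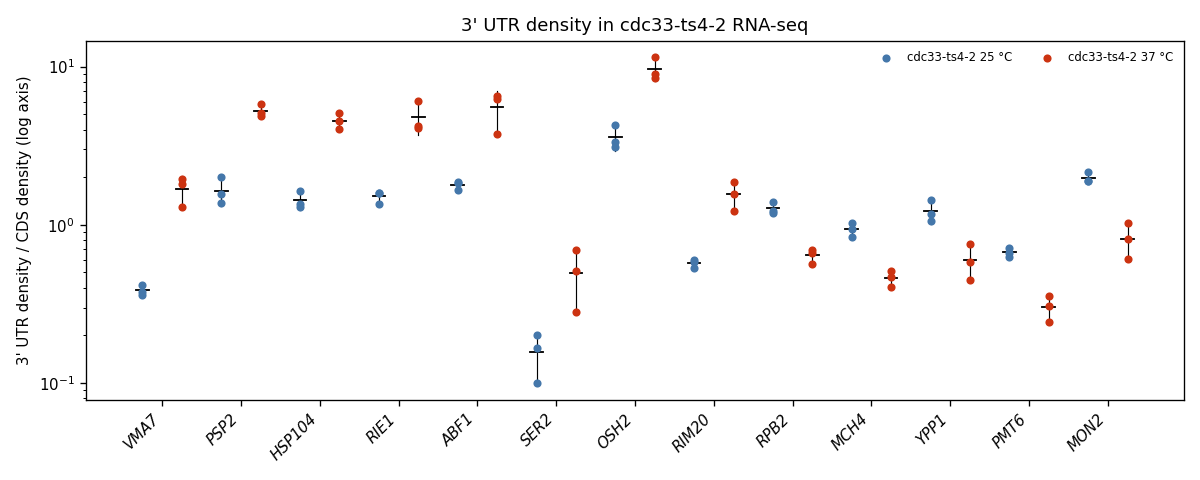
3′ UTR density divided by CDS density (y axis, log axis, no unit) in the 3 cdc33-ts4-2 libraries at 25°C and the 3 at 37°C for the named genes with the largest rises and falls. Points are libraries, horizontal lines means and vertical lines SDs; OSH2 has the highest values, 8.51 to 11.5 at 37°C, and the 5 genes on the right are lower at 37°C.

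Coverage along the average gene was compared in the same libraries. The authors divided coverage at each position by the gene's mean, and put the 5′ UTR, CDS and 3′ UTR into 100 bins each. Mean 5′ UTR coverage in the mutant was 0.554, 0.611 and 0.595 at 25°C and 0.684, 0.656 and 0.769 at 37°C. All libraries at 37°C were above all those at 25°C (exact permutation p = 0.1, the smallest possible), by a ratio of 1.20. Over the first 10 bins of the 5′ UTR, a summary added after the values were seen, the ratio was 1.49, from 0.309 ± 0.0185 to 0.459 ± 0.0503 (SD, n = 3). In 80 of the 100 bins of the 5′ UTR every 37°C library exceeded every 25°C library, and in none was the order reversed.

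The CDS bins went the other way and the 3′ UTR rose. Mean CDS coverage was 1.18, 1.17 and 1.16 at 25°C and 1.12, 1.14 and 1.12 at 37°C, a ratio of 0.963 without overlap (exact permutation p = 0.1). In 48 of the 100 CDS bins every 37°C library was below every 25°C library, and in 2 above. Coverage was divided by each gene's mean, so higher UTR coverage by itself lowers that of the CDS. The CDS fall is therefore not a result separate from the UTR rises. The last 10 bins of the CDS had 1.55 ± 0.0358 at 25°C and 1.46 ± 0.0285 at 37°C (SD, n = 3), while the first 10 bins were at 1.05 ± 0.0121 and 1.05 ± 0.0189 and overlapped. Coverage of the later CDS bins divided by that of the earlier ones, split at the middle, went from 1.27, 1.27 and 1.29 to 1.24, 1.23 and 1.22. The 3′ UTR coverage rose from 1.19, 1.20 and 1.27 to 1.42, 1.33 and 1.37, with no overlap (exact permutation p = 0.1), and 87 of its 100 bins were higher in all 37°C libraries.

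In CDC33 cells the 5′ UTR coverage moved down, from 0.554, 0.606 and 0.547 to 0.542, 0.521 and 0.462, and every 37°C library was below every 25°C library (exact permutation p = 0.1). Bin by bin this held in 37 of the 100 bins. Their CDS and 3′ UTR values overlapped between temperatures. The 3′ UTR coverage of CDC33 cells was 0.991, 1.384 and 1.425 at 25°C and 1.274, 1.323 and 1.514 at 37°C. The ratio of its means was 1.08, against 1.13 in the mutant, and the CDC33 replicates at 25°C lay further apart. Coverage of the later CDS bins divided by that of the earlier ones was 1.26, 1.33 and 1.34 at 25°C and 1.31, 1.38 and 1.53 at 37°C in these cells, with overlap. The difference between the strains was not tested for the coverage profiles.

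**Figure D5:**
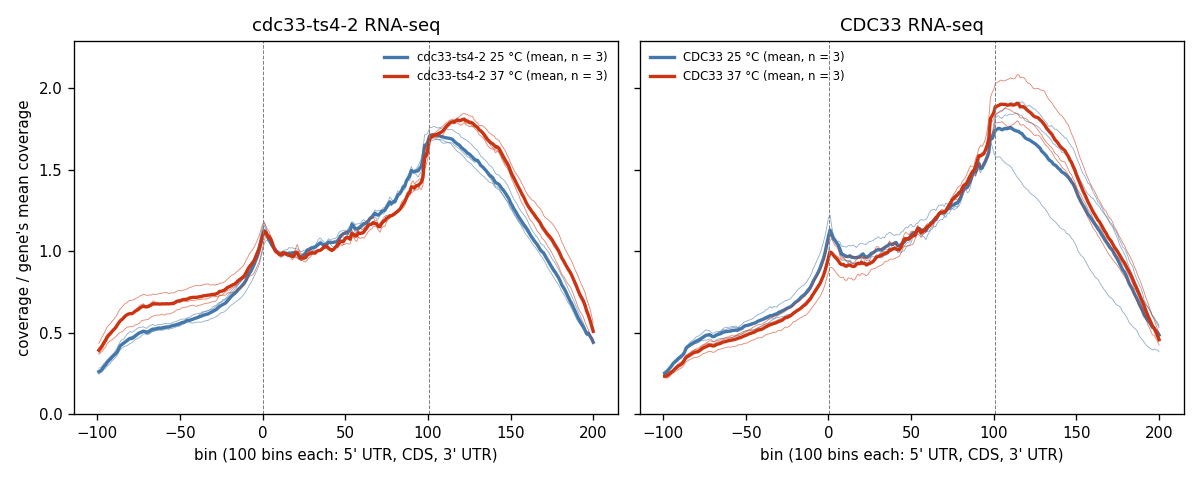
RNA-seq coverage along the average gene (y axis, coverage divided by the gene's mean coverage) over 100 bins each of 5′ UTR, CDS and 3′ UTR (x axis, dashed lines at the CDS ends) for cdc33-ts4-2 (left) and CDC33 (right). Thin lines are the 3 libraries per temperature and thick lines their mean; in the mutant every 37°C line lies above every 25°C line in 80 of the 5′ UTR bins and 87 of the 3′ UTR bins, and the lines meet near the CDS ends. In CDC33 cells every 37°C line lies below every 25°C line in 37 of the 5′ UTR bins.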

How the data were processed

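The authors aligned polyA-selected RNA-seq reads to R64-1-1 with STAR 2.7.10b, kept unique reads and counted them by strand with featureCounts, using published UTRs or default lengths. The deposited densities are a ratio of reads per nt of a region to the mean CDS coverage. The deposited coverage profiles are a signal averaged over genes by the authors, as is the mean normalised count from DESeq2, used to choose members. The authors' comparison tables (log2 fold changes, standard errors, p-values), which hold the change in level of each gene, were not used, so no change in level is reported. Depth per library was not among the values.

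In the density tables blanks stood only at the right end of a line, so that a value could not be tied to its library. Only lines with a value in all 20 libraries, ribosome profiling included, were used. These complete lines were 1218 of 3933 for 5′ UTRs, 90 of 171 for introns and 1208 of 3932 for 3′ UTRs. All complete members had a mean of at least 100. Names were matched to RefSeq R64, and 13 were not.

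Changes were tested with limma 3.58.1 in R 4.3.3 on log2 densities of all 12 RNA-seq libraries (pseudocount 0.01, introns 0.001), with Benjamini-Hochberg adjustment over all complete features. Fold changes are on the scale log2(density + pseudocount), which understates changes of low values. The test was tried on simulated data first. A simulated log2 change of 1 was recovered in 42% of changed 5′ UTRs, 60% of introns and 71% of 3′ UTRs. A region without a call may therefore have changed. Single values per library were compared by exact permutation (SciPy 1.17.1, 2-sided).

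Named genes were the 8 largest rises and falls that passed the threshold in each region, up to 3 called members of each of 19 gene lists, and 24 genes followed whatever their values. Genes outside this rule were named for a strain difference, for a call in more than 1 region or to complete a count. Members and lists were chosen with earlier results of these data known.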

Additional observations from a re-analysis of the deposited data

Results flagged for a closer look

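The 12 genes below had a 5′ UTR density whose log2 change at 37°C was more positive in cdc33-ts4-2 than in CDC33 cells. The test was the limma interaction, with n = 3 libraries per group. It compares signed changes, so the larger move could be a fall in CDC33 cells. The difference between the strains' log2 changes was 3.56 in HRP1 (adjusted p = 0.00265), 3.26 in RIM15 (adjusted p = 0.00265) and 3.16 in STO1 (adjusted p = 0.041). It was 2.68 in PHB1, 2.61 in PAN3, 2.55 in CAR1 and 2.42 in VSB1, the last a vacuolar arginine transporter. It was 1.78 in YHB1, 1.60 in BRE5, the cofactor of a ubiquitin protease, 1.53 in RAP1, 1.46 in YGL140C and 1.23 in the histone gene HTB2. In RIM15, STO1, PAN3, VSB1, YGL140C and CAR1 the change was above 0 in the mutant and below 0 in CDC33 cells. RAP1 changed by -0.05 in the mutant and by -1.58 in CDC33 cells.

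Mean coverage of the 5′ UTR in the average gene was higher at 37°C in cdc33-ts4-2 and lower in CDC33 cells. The ratios of 37°C to 25°C were 1.20 and 0.894. The temperatures did not overlap in either strain. In CDC33 cells the highest 37°C library (0.542) and the lowest 25°C library (0.547) were close. Over the first 10 bins the ratios were 1.49 and 0.877. The difference between the strains was not tested for either value.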

How the results depend on the processing

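Calls of single genes were less stable than directions. All 36 named values kept their direction under each of up to 19 alternatives, and 14 kept their call under all of them. Relative to the library median, rises and falls were 26 and 4 in 5′ UTRs, 8 rises in introns and 76 and 27 in 3′ UTRs, with 3 strain differences in 5′ UTRs and 3 in 3′ UTRs. In the 6 mutant libraries alone 1 5′ UTR fell and 57 3′ UTRs rose. With a mean intron density of at least 0.01, 76 introns were kept and 3 fell. ACT1, RPP1B and RPS27B lie under that mean, so their falls were not tested in this setting. Same-numbered libraries did not deviate together in every pair (correlation of deviations in the mutant 0.159, 0.0669 and 0.0747 in 5′ UTRs, -0.176, -0.152 and -0.0158 in introns and 0.327, 0.0636 and 0.0969 in 3′ UTRs). In CDC33 cells they did in introns (0.143, 0.219 and 0.114) and 3′ UTRs (0.183, 0.204 and 0.199) but not in 5′ UTRs (-0.0297, -0.104 and -0.00166). Cultures were divided between temperatures, but no label ties a number to 1 culture. A replicate block gave 1 fall and 6 strain differences in 5′ UTRs, 1 strain difference in introns and 48 rises in 3′ UTRs. Under the block ARG56 and SFK1 in 5′ UTRs and EFB1, RPL36B and SAR1 in introns had an adjusted p above the threshold (limma, 0.0529 to 0.121).

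Leaving out 1 library at a time, CDC33 libraries included as an alternative added after seeing the data, gave 29 to 44 rises and 0 to 3 falls in 5′ UTRs, 9 to 20 and 2 to 6 in introns and 0 to 68 and 0 to 13 in 3′ UTRs. Strain differences ranged from 3 to 12 in 5′ UTRs and from 0 to 3 in introns. The cause was not tested. The mean in place of the median gave ratios of 37°C to 25°C of 1.45 for introns and 1.16 for 3′ UTRs, and introns above 0 in every RNA-seq library gave 1.24. Divided by the CDS mean, the coverage ratio was 1.17 for the 3′ UTR, 1.04 for the first and 0.981 for the last 10 bins of the CDS, and the median over bins gave 1.02 for the first 10. A member minimum of 100 left 4147 genes.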

Other observations

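UTR features were at hand for part of the members. Over 265 genes with a listed 5′ UTR length, 7 of them risers, Spearman's rho with the change in 5′ UTR density was -0.001, and over 254 genes that of 3′ UTR length with the change in 3′ UTR density was 0.038. The median listed 5′ UTR was 120 nt, and 5 of the 116 longer ones and 2 of the 149 others rose. Genes without a published UTR had been given a default length, and the median listed length of either UTR equals its default. The listed lengths may therefore include defaults, which were not separated here. For that reason the correlations and the split cannot decide whether measured UTR length goes with the change. For the folding energy of the 5′ UTR, which may rest on default sequences too, rho was -0.049. The genes share their libraries, so these are descriptions. The 13 genes with at least 1 upstream open reading frame had a median 5′ UTR change of 0.10 and the 252 without one 0.08. Coding length went with the change in 3′ UTR density at a rho of -0.245 over 254 genes.

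The gene upstream of the start codon lay on the opposite strand for 35 of the 44 5′ UTRs that rose, or 79.5%, and for 57.7% of all measured members. A same-strand gene within 500 nt stood upstream of 2 of the 44, or 4.55%, against 24.2% of all members. The reason was not tested.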
